A study of Mus musculus with 7 samples.

Results

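The heterochromatin and DNA methylation machinery was described here in mouse kidney through 40 genes, grouped by what their proteins do. The members and the gene lists below were chosen with earlier results of these data known. They encode the HP1 proteins, the enzymes that add or remove methylation at lysine 9 of histone H3 (H3K9), silencing cofactors and histone deacetylases. Further members encode DNA methyltransferases and their UHRF partners, TET dioxygenases and methyl-CpG binding domain (MBD) proteins. The rest encode the core of Polycomb repressive complex 2 (PRC2) and the HMGA proteins. All 40 were among the 24328 gene symbols in the files, and 39 were among the 17283 genes whose mean over the 4 mice reached 5 normalized counts and which were tested. Right kidneys of 3 LBR-null mice (4001, 4002 and 4007; genotype Lbric-J/ic-J) were compared by polyA RNA-seq with the kidney of 1 WT littermate (4009; Lbr+/+), all C57BL/6J and 4 weeks old. LBR, the lamin B receptor, is a protein of the inner nuclear membrane that holds heterochromatin at the nuclear envelope, and the ic-J allele is a loss-of-function mutation carried from conception in every cell, so no tissue or time is set apart in this model. There were 2 libraries from each mouse except 4002, which had 1. Values are normalized counts, that is, reads divided by a size factor of the library.

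Heterochromatin is the compact, mostly silent share of the genome. SUV39H, SETDB and EHMT enzymes methylate H3K9, the HP1 proteins bind the methylated tail, and LBR binds HP1 and so links such chromatin to the nuclear periphery. DNA methylation is copied after replication by DNMT1, which UHRF1 guides to newly made DNA, whereas DNMT3A and DNMT3B set new methylation and TET enzymes oxidize it. PRC2, built on EZH1 or EZH2 with EED and SUZ12, methylates lysine 27 of histone H3. EZH2 is known to prevail in dividing cells and EZH1 in resting cells, and Uhrf1 and Dnmt1 are known to be transcribed mostly in cells that replicate their DNA.

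The sequence upstream of 3 member start sites is shown, because Uhrf1 was the member furthest below WT, Ezh1 the member furthest above, and Suz12 a PRC2 partner that holds the same class of letters as Uhrf1. Each run is the 250 bases before a RefSeq start site of GRCm38.p6 and was found once, unchanged, on the same chromosome of mm9, whose coordinates are given. None of these 3 windows overlaps an exon of the mm9 gene models. The Uhrf1 start site used lies 992 bases inside the annotated gene, and the other windows end right before the first annotated base of the gene. Capitals mark E2F letters in Uhrf1 and Suz12 and NRF1 letters in Ezh1. The window of Ezh2, whose log2 fold change was 0.01, holds NRF1 letters too, 165 to 156 bases before its start site. It overlaps an exon and is not printed.
Uhrf1, chr17:56443486-56443735, plus strand: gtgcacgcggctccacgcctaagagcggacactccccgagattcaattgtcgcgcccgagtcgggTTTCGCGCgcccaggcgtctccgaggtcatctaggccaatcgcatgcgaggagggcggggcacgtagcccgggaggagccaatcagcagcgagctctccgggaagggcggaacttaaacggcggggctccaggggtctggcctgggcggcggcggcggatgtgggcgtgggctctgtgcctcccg
Suz12, chr11:79806358-79806607, plus strand: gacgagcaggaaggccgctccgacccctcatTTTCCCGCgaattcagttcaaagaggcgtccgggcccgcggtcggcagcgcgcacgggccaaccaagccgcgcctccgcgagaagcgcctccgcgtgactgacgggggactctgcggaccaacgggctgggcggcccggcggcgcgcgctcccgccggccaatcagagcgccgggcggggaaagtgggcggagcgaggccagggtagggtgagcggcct
Ezh1, chr11:101087778-101088027, minus strand: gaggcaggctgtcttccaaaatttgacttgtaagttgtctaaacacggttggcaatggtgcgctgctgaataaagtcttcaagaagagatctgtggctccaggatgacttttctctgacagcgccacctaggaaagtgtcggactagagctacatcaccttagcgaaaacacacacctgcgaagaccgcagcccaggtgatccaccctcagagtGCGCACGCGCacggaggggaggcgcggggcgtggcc

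RefSeq windows matched 34 of the 40 members, with 48 start sites. E2F letters were TTTGGCGC, TTTCCCGC, TTTGCCGC or TTTCGCGC on either strand, and they stood in 5 of the 48 windows (10.4%), each a single window of Uhrf1, Dnmt1, Suz12, Suv39h1 and Cbx3, beside 1.9% of all 32851 windows. Uhrf1, Dnmt1, Suv39h1 and Cbx3 have other start sites whose windows lack these letters, so the Uhrf1 window shown is the one of its windows that holds them. Of these 5 windows, 3 overlap an exon and are not printed. Of the 5 genes, Uhrf1 and Dnmt1 lay below WT in every library, Suz12 and Suv39h1 above, and Cbx3 overlapped. NRF1 letters were in 16.7% of member windows and 3.7% of all windows, and CCAAT on either strand in 35.4% and 33.8%. TTTGAA, the letters of the cell cycle homology region, was in 8.3% of member windows and 16.0% of all. A GC content of at least 50% with an observed over expected CpG ratio over 0.6 was found in 79.2% of member windows and 31.0% of all, so the members mostly start in CpG-rich sequence. The motif shares were not matched for GC content, whose median was 66.4% in member windows and 52.4% in all windows. These matches describe letters and not binding, and the motifs were chosen after the expression values were seen.

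Libraries held between 20694016 and 26333284 reads on genes. The libraries of mouse 4001 differed more from each other than did those of the other mice, with a median absolute log2 difference of 0.17 over the members, compared with 0.06 in mouse 4007 and 0.06 in the WT mouse. Lbr itself (chromosome 1, 183745447 to 183772532, mm9) was at 330, 314, 340, 495 and 448 normalized counts in the LBR-null libraries and at 416 and 381 in the WT libraries, so its RNA does not separate the genotypes and does not check them. Xist was at 5785, 65.3 and 9940 normalized counts in LBR-null mice 4001, 4002 and 4007 and at 35.5 in the WT mouse, and Y-linked Ddx3y at 141, 1516, 44.3 and 1284. Y-linked Eif2s3y was at 156, 2420, 54.0 and 1477. Mice 4001 and 4007 thus gave high Xist together with Y-linked reads at a low level, and whether these libraries hold RNA of more than a single animal was not tested. This bears on each LBR-null mean below. The labels give no sex. Mouse 4002 is the LBR-null mouse with Xist and Ddx3y near the WT values, and its own difference from WT is given for the X-linked members and for Uhrf1, Ezh1, Hmga2, Smchd1, Suv39h2 and Mbd3.

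No member passed the test as a change. In limma on log2(normalized counts + 1) of mouse means, 0 of 17283 genes (0%) had a Benjamini-Hochberg adjusted p under 0.05 with a 2-fold change. The members at an unadjusted p under 0.05 numbered 3 higher in LBR-null kidney, Ezh1, Smchd1 and Suv39h1, and 1 lower, Uhrf1. That is 7.69% of the members tested, beside 10.7% of all genes higher, and 2.56% beside 8.05% of all genes lower. By the ratio of the LBR-null mean to WT, Ezh1 was at least 2-fold higher and Uhrf1 at least 2-fold lower, with a background of 14.5% and 7.04% of all genes. Every LBR-null library lay above both WT libraries for 9 members and below both for 7, where 25.5% and 25.7% of all genes did so. Each of these shares of the members was below its background in the fit as reported. The members were also more highly expressed, with a median of 1004 normalized counts beside 388 over all genes tested. With a mean of at least 20 required, the 3 members higher at an unadjusted p under 0.05 (7.69%) stood beside 7.23% of all genes, slightly above. With that filter, members with every library higher were slightly above as well, at 9 (23.1%, beside 22.9% of all genes). They were above the background too without mouse 4001, at 17 (43.6% of the members, beside 35.7% of all genes). Without mouse 4002 they numbered 13 (33.3%, beside 29.7%), also above it. At an unadjusted p under 0.05, members higher numbered 5 without mouse 4001 (12.8%, beside 15.0% of all genes), 2 without mouse 4002 (5.13%, beside 12.2%) and 1 without mouse 4007 (2.56%, beside 6.12%). With DESeq2 on the recovered reads, Ezh1 and Uhrf1 passed the test, among 3.08% of all genes called higher and 3.33% called lower, and edgeR called 0.00579% and 0.156% of all genes and no member. The median log2 fold change of the 39 members was 0.09, beside 0.01 over all genes tested, and the median absolute log2 fold change was 0.22, beside 0.41. With a single WT mouse, the fit takes the spread seen among the 3 LBR-null mice to hold for WT too. In whole kidney, fewer cells of a type and less RNA per cell cannot be told apart.

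**Figure D1:**
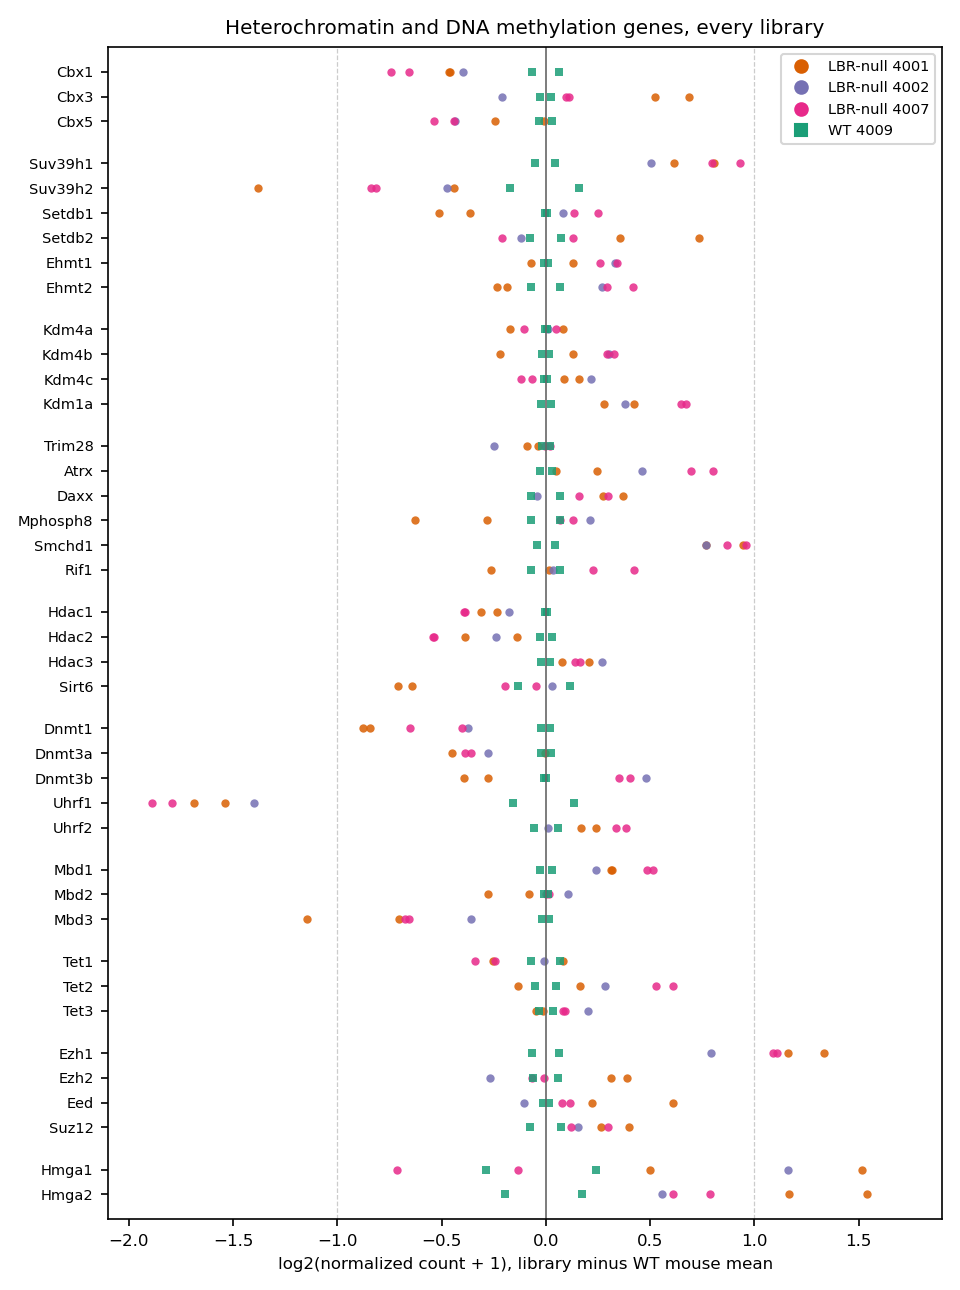
Log2(normalized count + 1) of each library minus the log2 value of the WT mouse mean, for the 40 members in the order of their roles; circles are LBR-null libraries, squares WT libraries, and dashed lines mark a 2-fold difference. Uhrf1 is the member with all 5 LBR-null libraries beyond the lower dashed line, and the Ezh1 circles of mice 4001 and 4007 lie beyond the upper line and that of mouse 4002 short of it.

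**Figure D2:**
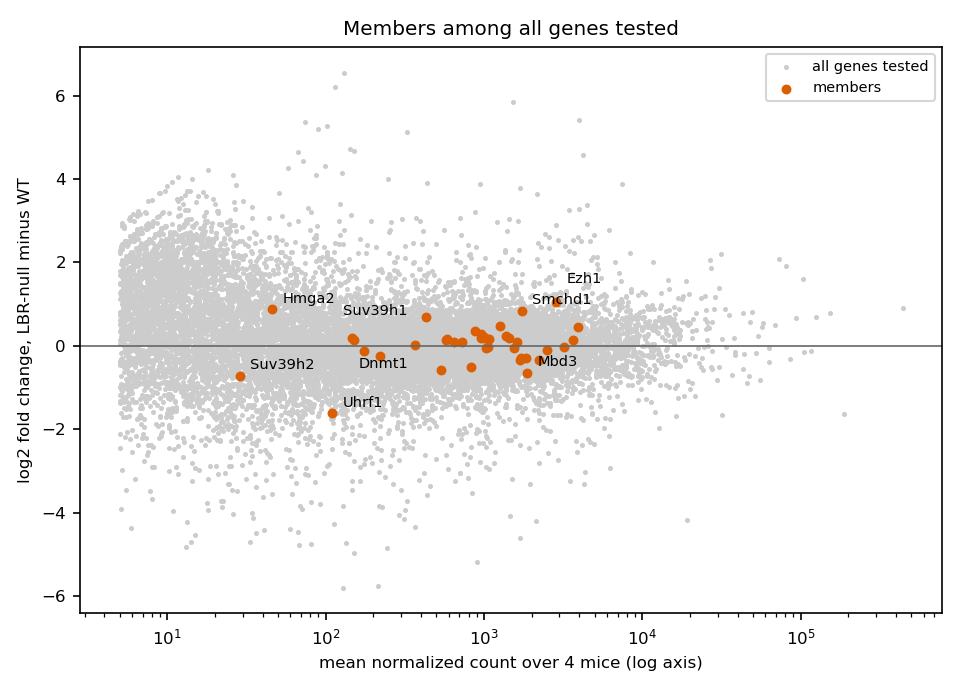
Log2 fold change (LBR-null minus WT) against the mean normalized count over 4 mice on a log axis, for all 17283 genes tested (grey) and the 39 members among them (orange). Most members lie in the dense middle of the grey cloud, from -1.62 for Uhrf1 to 1.05 for Ezh1.

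The enzymes that copy and set DNA methylation were led by Uhrf1. Uhrf1, which binds hemimethylated DNA and brings DNMT1 to it, was at 75.8, 68.3, 83.4, 63.3 and 59.2 normalized counts in the LBR-null libraries and at 199 and 244 in the WT libraries. All 5 LBR-null libraries were below both WT libraries, with a mean of 72.2 ± 11.1 (SD, n = 3 mice) against 222 in the WT mouse. This was 3.07-fold lower, a log2 fold change of -1.62 (SE 0.37) with an unadjusted p of 0.00402 and an adjusted p of 0.114 in limma. The mice differed little among themselves: mice 4001, 4002 and 4007 had log2 fold changes of -1.61, -1.40 and -1.84. The adjusted p of Uhrf1 was 0.00486 in DESeq2 and ran from 0.00486 to 0.387 over the alternatives, while the log2 fold change stayed between -1.75 and -1.40.

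Dnmt1, the maintenance methyltransferase, was at 389, 398, 552, 454 and 540 normalized counts in LBR-null libraries and at 725 and 704 in WT. It was lower in all 5 libraries, with a mean of 481 ± 80.5 (SD, n = 3) against 715, but its log2 fold change of -0.58 (SE 0.29) had an adjusted p of 0.339 in limma. Uhrf2, the relative of Uhrf1, had overlapping groups, from 873 to 1132 in LBR-null libraries and at 831 and 901 in WT. The de novo enzymes overlapped as well, with a log2 fold change of -0.29 for Dnmt3a and 0.18 for Dnmt3b. Because both come from the same library, a ratio of reads does not depend on the scaling: Uhrf2 had 10.5 to 18.5 reads per Uhrf1 read in the LBR-null libraries and 4.17 and 3.69 in the WT libraries. Dnmt3a had 2.85 to 4.95 reads per Dnmt1 read in LBR-null libraries, which met the WT values of 2.68 and 2.85.

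Markers of dividing cells were lower in the same kidneys. Of 24 proliferation markers tested, 20 (83.3%, beside 8.05% of all genes) were lower at an unadjusted p under 0.05, none of them past the adjusted threshold, and the median log2 fold change was -2.11. The medians were -2.16, -2.07 and -1.92 in mice 4001, 4002 and 4007. Mki67, the proliferation antigen Ki-67, was at 117, 95.4 and 44.2 normalized counts in the LBR-null mice and at 1052 in the WT mouse. Not every replication gene was lower to that extent: Pcna, the replication clamp, had a log2 fold change of -0.26 and Mcm6, a helicase subunit, of -0.63. The summed level of the 24 markers ranged from 3299 to 4557 in LBR-null libraries and was 8901 and 8946 in WT. The part of dividing cells in the values of Uhrf1 and Dnmt1 was not tested.

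**Figure D3:**
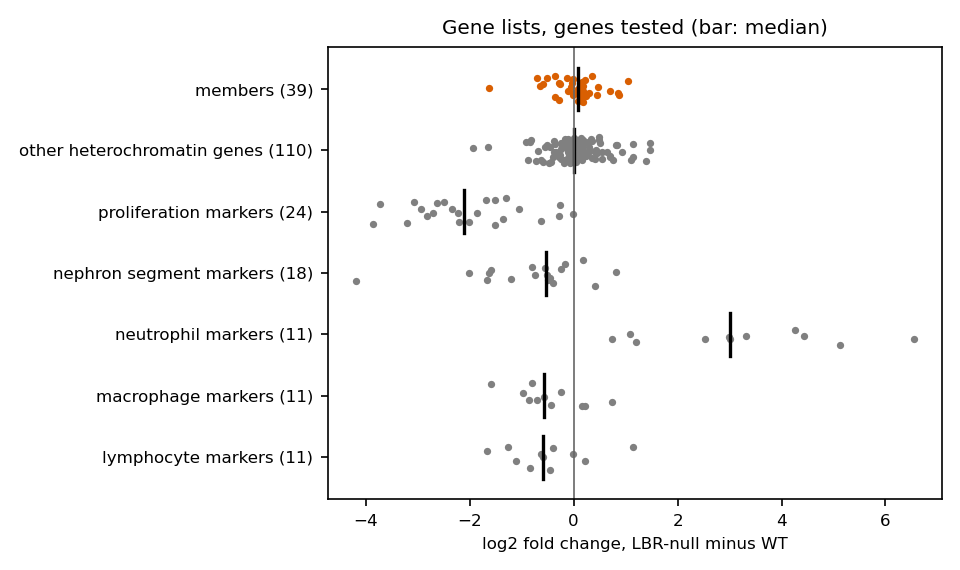
Log2 fold change (LBR-null minus WT) of each gene tested in 7 lists, with the number of genes in brackets; points are genes, vertical bars are list medians, and the vertical jitter has no meaning. The members centre near 0 with a median of 0.09, whereas the proliferation markers have a median of -2.11 and the neutrophil markers of 3.0.

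Markers of other cell types were counted in the same way. Of 11 neutrophil markers tested, 8 were higher at an unadjusted p under 0.05, beside 10.7% of all genes, none past the adjusted threshold. The sum over all 12 listed was 771 to 3302 normalized counts in LBR-null libraries and 323 and 350 in WT. S100a8 and S100a9 were above 0 in every library, and Retnlg, Camp and Mpo were at 0 in a WT library. All 18 nephron segment markers were read in every library. The median log2 fold change was -0.54, with 4 lower (22.2%, beside 8.05% of all genes) and 0 higher (beside 10.7%) at an unadjusted p under 0.05 in limma, none past the adjusted threshold. All 4 are proximal tubule genes: Slc22a6, an organic anion transporter, was at 363, 552 and 313 normalized counts in mice 4001, 4002 and 4007 against 7282 in WT, and Slc5a2, Slc34a1 and Lrp2 had log2 fold changes of -2.02, -1.67 and -1.59. Slc12a1, a transporter of the thick ascending limb, was above WT in every library, at 37356 to 66848 in the LBR-null mice against 30771, whereas Umod, another gene of that segment, overlapped with WT, at 65565, 30513 and 20476 in mice 4001, 4002 and 4007 against 38395. The summed level of the list was 216161 to 430486 in LBR-null libraries, lowest in mouse 4007, and 618195 and 637662 in WT, and Kap was its largest term in WT. At an unadjusted p under 0.05, 2 of 11 macrophage markers (18.2%), 1 of 11 lymphocyte markers (9.09%) and 2 of 6 erythroid markers (33.3%) were lower, beside 8.05% of all genes, and 1 erythroid marker (16.7%) was higher, beside 10.7%, none past the adjusted threshold, with medians of -0.57, -0.58 and -0.75 and members on both sides of WT in each list. Their part in the members' values was not tested.

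Polycomb genes held the member furthest above WT. Ezh1, a catalytic subunit of PRC2, was at 3511, 3952, 2715, 3335 and 3377 normalized counts in LBR-null libraries and at 1638 and 1497 in WT. Each LBR-null library exceeded both WT libraries, with a mean of 3268 ± 514 (SD, n = 3) against 1568. The log2 fold change was 1.05 (SE 0.28), a ratio of 2.08, with an unadjusted p of 0.00804 and an adjusted p of 0.127 in limma. Mouse 4002 was lowest, at a log2 fold change of 0.79, and mouse 4001 highest. Without mouse 4001, or without the second WT library, the ratio was under 2-fold. The adjusted p was 0.0300 in DESeq2 and ran from 0.00805 to 0.410 over the alternatives.

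Ezh2, the other catalytic subunit, was at 449, 473, 300, 345 and 359 normalized counts in LBR-null libraries and at 346 and 376 in WT. The groups overlapped, with the libraries of mouse 4001 above WT and that of mouse 4002 below, and the log2 fold change was 0.01 (SE 0.32; adjusted p = 0.987 in limma), with a sign that changed with the scaling. Ezh1 had 7.82 to 9.68 reads per Ezh2 read in the LBR-null libraries and 4.73 and 3.98 in the WT libraries. Eed, which binds the methylated lysine, overlapped with WT at a log2 fold change of 0.14. Suz12, the scaffold of the complex, lay at 1319 to 1600 in LBR-null libraries and at 1151 and 1273 in WT, a log2 fold change of 0.23 (SE 0.23; adjusted p = 0.635 in limma) with every library higher.

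**Figure D4:**
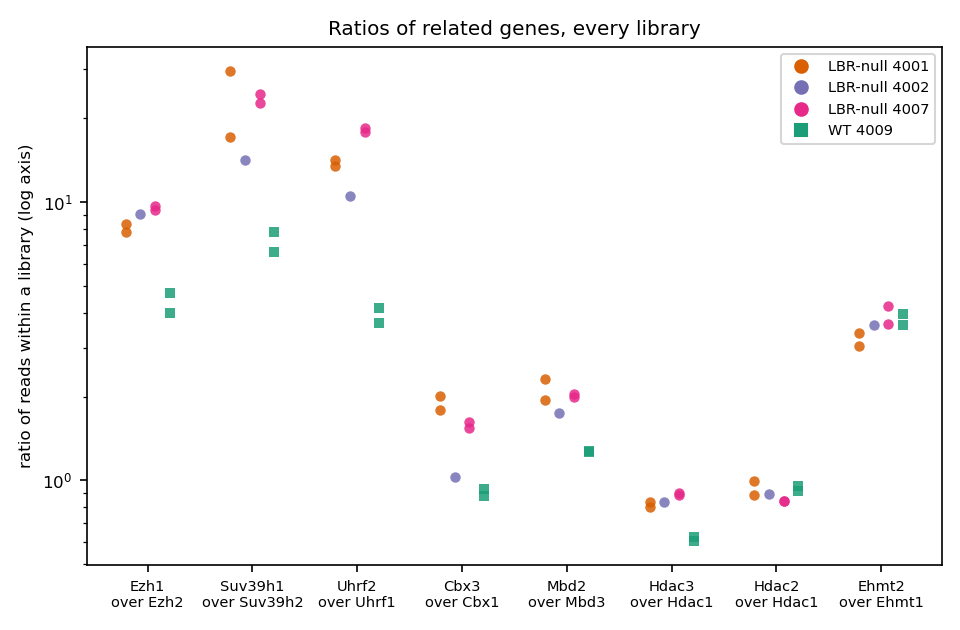
Reads of one gene over reads of a related gene in the same library, on a log axis; circles are LBR-null libraries and squares WT libraries. LBR-null and WT libraries are apart for the first 6 ratios, as for Ezh1 over Ezh2 (7.82 to 9.68 against 4.73 and 3.98). They overlap for Hdac2 over Hdac1 and Ehmt2 over Ehmt1. Of the pairs not drawn, Cbx3 over Cbx5 was apart, Dnmt3a over Dnmt1 met WT, and Cbx5 over Cbx1 and Dnmt3a over Dnmt3b overlapped. Pairs were picked with the values in view, and no share over other gene pairs was taken.

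None of the HP1 genes reached an unadjusted p under 0.05 in limma, and all lay below WT in mouse 4002. Cbx1, which encodes HP1 beta, was at 777, 779, 813, 679 and 641 normalized counts in LBR-null libraries and at 1023 and 1121 in WT. It was lower in every library, with a mean of 750 ± 80.4 (SD, n = 3) against 1072, a log2 fold change of -0.52 (SE 0.25; adjusted p = 0.328 in limma). Cbx5, which encodes HP1 alpha, was at 2220, 2616, 1942, 1936 and 1814 against 2575 and 2689; a library of mouse 4001 lay between the WT libraries, and the log2 fold change was -0.35 (SE 0.26; adjusted p = 0.517 in limma). Cbx3, which encodes HP1 gamma, was at 1562, 1393, 837, 1045 and 1035 against 951 and 987. Its mean was above WT by a log2 fold change of 0.17 (SE 0.35; adjusted p = 0.838 in limma), through mouse 4001, and was -0.05 without that mouse. Cbx3 had 1.03 to 2.01 reads per Cbx1 read in LBR-null libraries and 0.930 and 0.881 in WT. Mouse 4007 was the lowest of the 4 for Cbx1 and Cbx5, and mouse 4002 for Cbx3.

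Among the H3K9 methyltransferases, the SUV39H pair lay on opposite sides of WT. Suv39h1, an enzyme of pericentric heterochromatin encoded on the X chromosome, was at 512, 448, 415, 508 and 557 normalized counts in LBR-null libraries and at 301 and 282 in WT. All 5 libraries were higher, with a mean of 476 ± 58.6 (SD, n = 3) against 292 and a log2 fold change of 0.70 (SE 0.27; unadjusted p = 0.0415 and adjusted p = 0.242 in limma). Mouse 4002, with Xist near WT, had a log2 fold change of 0.51, and mice 4001 and 4007 had 0.72 and 0.87. The part of the Xist difference in this value was not tested. Suv39h2, its autosomal relative, was at 29.9, 15.1, 29.2, 22.4 and 22.8 against 45.7 and 36.2. Every LBR-null library was lower, with a log2 fold change of -0.71 (SE 0.46; adjusted p = 0.452 in limma) at a level of few reads, and of -0.47 in mouse 4002. Suv39h1 had 14.2 to 29.7 reads per Suv39h2 read in LBR-null libraries and 6.59 and 7.80 in WT.

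The other H3K9 methyltransferases overlapped with WT. Setdb1, which works with KRAB zinc finger proteins, was at 730, 810, 1103, 1144 and 1240 normalized counts against 1038 and 1047, with mouse 4001 below WT and the other two above. Ehmt1 was at 843, 968, 1115, 1120 and 1059 against 890 and 879, and Ehmt2 at 2847, 2948, 4038, 4105 and 4482 against 3514 and 3191. EHMT1 and EHMT2 form the complex that lays down H3K9me1 and H3K9me2. In both genes mice 4002 and 4007 were above WT. Both libraries of mouse 4001 were below WT for Ehmt2, but for Ehmt1 only its first library was. The log2 fold changes were -0.05 for Setdb1, 0.22 for Ehmt1 and 0.14 for Ehmt2, with adjusted p-values of 0.948, 0.678 and 0.850 in limma. Setdb2 had 0.14.

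Of the demethylases, Kdm1a, which removes methyl groups from H3K4 and, in some settings, H3K9, was at 1317, 1191, 1277, 1536 and 1566 normalized counts against 965 and 997. It was higher in all 5 libraries, with a log2 fold change of 0.46 (SE 0.25; adjusted p = 0.371 in limma). Kdm4a, Kdm4b and Kdm4c, demethylases of H3K9me3, overlapped with WT at -0.02, 0.19 and 0.08. The deacetylases Hdac1 and Hdac2 were lower in every LBR-null library, with log2 fold changes of -0.28 and -0.35, and Hdac3 was higher in every library, with 0.19, all with an adjusted p of 0.502 or more in limma. Hdac3 had 0.803 to 0.900 reads per Hdac1 read in LBR-null libraries and 0.603 and 0.626 in WT. Sirt6 was at -0.26, with mouse 4001 lowest and mouse 4002 at WT level.

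Smchd1 led the silencing cofactors. SMCHD1, a structural maintenance of chromosomes protein needed to keep the inactive X chromosome and some imprinted clusters silent, was at 1850, 2094, 1849, 2118 and 1986 normalized counts in LBR-null libraries and at 1119 and 1056 in WT. The LBR-null libraries stood clear of WT, with a mean of 1958 ± 102 (SD, n = 3) against 1087, a ratio of 1.80 and a log2 fold change of 0.85 (SE 0.23; unadjusted p = 0.00911 and adjusted p = 0.131 in limma). The gene is on chromosome 17, and mouse 4002 had a log2 fold change of 0.77, beside 0.86 and 0.92 in the mice with high Xist. Atrx, an X-linked remodeller that deposits histone H3.3 with DAXX, was at 3132, 3595, 4166, 5289 and 4915 against 2973 and 3089. All libraries were higher, one of mouse 4001 by little, and the log2 fold change was 0.45 (SE 0.31; adjusted p = 0.480 in limma), 0.46 in mouse 4002. Daxx, Trim28, Mphosph8 and Rif1 overlapped with WT, with log2 fold changes of 0.17, -0.10, -0.04 and 0.08.

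Of the MBD genes, Mbd3 lay below WT and Mbd1 above in every library, and Mbd2 overlapped. Mbd3, a subunit of the NuRD deacetylase complex, was at 1569, 1156, 1995, 1601 and 1619 normalized counts against 2586 and 2528. Every LBR-null library was lower, with a mean of 1656 ± 319 (SD, n = 3) against 2557 and a log2 fold change of -0.64 (SE 0.29; adjusted p = 0.294 in limma), -0.36 in mouse 4002. Mbd1 was at 898, 896, 853, 1010 and 1030 against 736 and 706, higher in every library with a log2 fold change of 0.35 (SE 0.24; adjusted p = 0.485 in limma). Mbd2, which takes the place of MBD3 in another form of NuRD, overlapped with WT at -0.02, and had 1.75 to 2.31 reads per Mbd3 read in LBR-null libraries and 1.26 and 1.27 in WT. The TET dioxygenases Tet1, Tet2 and Tet3 overlapped with WT at -0.12, 0.29 and 0.09. Hmga2, an architectural protein of fetal and proliferating cells, was at 62.0, 80.8, 40.4, 47.5 and 41.9 against 30.7 and 23.5, above WT in every library, with a log2 fold change of 0.87 (SE 0.49; adjusted p = 0.391 in limma), 0.56 in mouse 4002. Hmga1 was not tested, with 27 reads over the 7 libraries and 1 to 9 in each. It was at 3.44, 7.99, 6.02, 1.86 and 0.911 normalized counts against 1.57 and 2.71, and the groups overlapped.

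Levels can be compared between members only per length, here as normalized counts per kilobase of all exons of a gene. Mbd3 was highest in the WT mouse at 1290 and Mbd2 next at 1010, while in the LBR-null mean Mbd2 was first. Mbd2 was above Mbd3 in each LBR-null mouse, at 891, 1080 and 1010 against 686, 1000 and 810, and below it in the WT mouse. Trim28, Hdac1 and Ehmt2 followed in WT at 655, 620 and 611. Ezh1 was the 15th member in WT at 211 and the 6th in LBR-null mice, at 365 to 502. Smchd1 was the 22nd in WT at 143 and the 16th in LBR-null mice, at 244 to 271. Uhrf1 was the 34th in WT at 52.1 and the 36th in LBR-null mice, at 14.4 to 19.6. Tet1, Suv39h2, Hmga2 and Hmga1 were at 12.5 or less in every mouse.

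**Figure D5:**
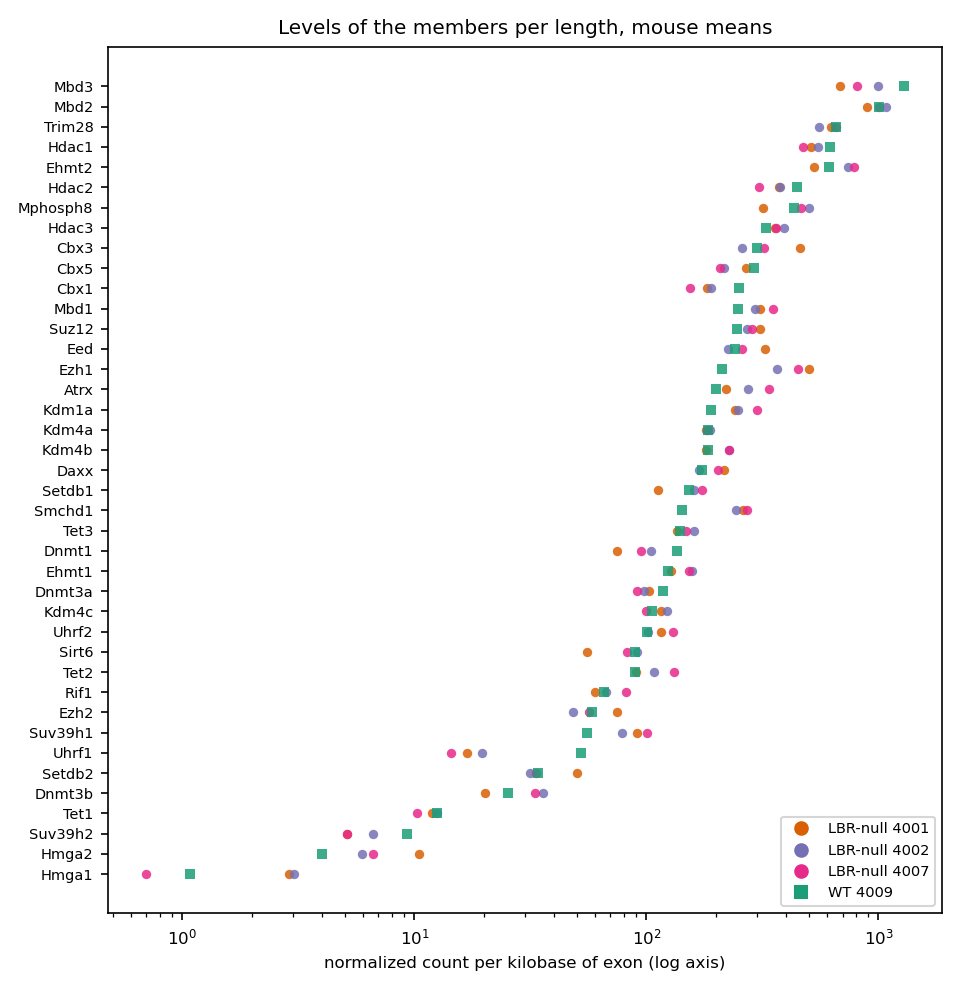
Normalized count per kilobase of exon on a log axis for the 40 members, ordered by the WT level; each point is a mouse mean, circles LBR-null and squares WT. Ezh1 (365 to 502 against 211) and Smchd1 (244 to 271 against 143) lie right of WT and Uhrf1 (14.4 to 19.6 against 52.1) left of it.

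Other genes of heterochromatin, 110 tested of 119 listed, were counted in the same way. In limma 11 (beside 10.7% of all genes) were higher and 4 (3.64%, beside 8.05%) lower at an unadjusted p under 0.05, none past the adjusted threshold, and their median log2 fold change was 0.01. Without mouse 4001, 18 were higher, beside 15.0% of all genes, and 8 lower, beside 13.4%. Without mouse 4007, 2 were higher, beside 6.12% of all genes, and 2 lower, beside 4.29%. Among those with every library on one side, Asf1b, a histone chaperone of replication, was at 12.4 to 31.0 normalized counts in LBR-null libraries and at 84.3 and 75.1 in WT. Chd3, a chromatin remodeller found in NuRD, was at 1641 to 2363 against 6257 and 6105, a log2 fold change of -1.65 (SE 0.28; adjusted p = 0.0906 in limma). Gadd45b, which has been tied to DNA demethylation, was at 547 to 872 against 252 and 264. Of the Polycomb repressive complex 1 genes, Cbx7 was at 1335 to 2673 against 712 and 675, Cbx2 at 223 to 393 against 150 and 127, and Pcgf5 at 220 to 382 against 133 and 143. Hdac9 was at 67.9 to 113 against 37.0 and 37.1. Kdm6a, an X-linked demethylase of H3K27 known to escape X inactivation, was at 1300, 1527, 753, 1430 and 1377 against 548 and 508, with mouse 4002 nearest to WT.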

How the data were processed

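Polyadenylated RNA of 7 kidney libraries from 4 mice was sequenced as 150 bp paired ends. STAR 2.6.0 was the authors' aligner (mm9), and they deposited a normalized signal per gene symbol, which is read counts divided by the DESeq2 1.25.1 size factor of each library; the counting program and annotation are not given in the sources used here. All deposited values (100%) were whole multiples of 1 read, within 0.01 read, so reads were recovered; 1 read was worth 0.787 to 1.15 normalized counts. Samples with a mouse number in common were taken as libraries of 1 mouse and averaged, and the mouse was the replicate.

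limma 3.58.1 (eBayes with trend, R 4.3.3) was fitted to mouse means, as log2(normalized counts + 1), of the 17283 genes that averaged 5 or more, and p-values were adjusted over all of them by Benjamini-Hochberg; a call needed an adjusted p under 0.05 and a 2-fold change, the limits in the study's methods. The fit had 2 residual and 4.34 prior degrees of freedom. Fold changes are on this log2 scale, which understates low genes. A permutation of 3 mice against 1 was not used, since it cannot reach 0.05. Alternatives were pseudocounts of 0.5 and 5, no filter or a mean of at least 20, equal totals, TMM, edgeR 4.0.16 and DESeq2 1.42.0 on recovered reads summed per mouse, mouse and replicate blocks, and leaving out mice or libraries. The scripts were tested on simulated data.

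The members, roles and lists were chosen with earlier results of these data known. Values in every library were given for HP1 genes, the main H3K9 methyltransferases, Dnmt1, Uhrf1 and Ezh2, for members at an unadjusted p under 0.05 or 2-fold apart, and for up to 12 members with groups apart. Of the other heterochromatin genes, those named were the 8 with the largest change among genes at an unadjusted p under 0.05 with every LBR-null library on the same side of WT. Gene pairs for ratios, promoter motifs and the cell type markers named were picked with the values in view. Exon lengths are from GENCODE vM1 on mm9. No protein sequences were used here. Where nothing says that libraries came from separate preparations, differences between libraries may be technical. Without a stated strand setting, reads of overlapping antisense genes cannot be told apart.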

Additional observations from a re-analysis of the deposited data

How the results depend on the processing

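Of 288 values of the 18 tested named members under 16 alternatives, 266 were counted as unchanged. With a test, this meant the same direction and side of the threshold. With mouse 4002 alone, which allows no test, it meant the same direction and a value within the SD of the LBR-null mice. Of the other values, 7 passed the test, 6 lay outside that SD and 9 changed sign. Of the 18 members, 15 kept their sign under all 16 alternatives. With a mouse or WT library left out, Cbx3 ran from -0.05 (without LBR-null mouse 4001) to 0.35, Ezh2 from -0.15 to 0.16 and Setdb1 from -0.18 to 0.14. Cbx3 turned to -0.21 with mouse 4002 alone against WT. Setdb1 turned to 0.14 without mouse 4001 and 0.08 with mouse 4002 alone. Ezh2 turned to -0.01 with TMM and -0.01 with edgeR, -0.15 without mouse 4001, -0.04 without the first WT library and -0.27 with mouse 4002 alone. The cause was not tested.

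No member passed the test as reported. DESeq2 and the mouse as a random block passed 2 members each, Ezh1 and Uhrf1, beside 346 of 17283 genes higher and 501 lower with the mouse block, and leaving out a mouse or a WT library passed 0 to 1, Uhrf1 without mouse 4001 (beside 3.83% of all genes lower). With the replicate block, fitted on the 6 libraries of mice 4001, 4007 and 4009, 2 members passed (Ezh1 and Uhrf1, beside 3.42% of all genes higher and 4.18% lower), 2 were at least 2-fold higher (14.1% of all genes) and 4 were lower at an unadjusted p under 0.05 (12.5%). Library numbers did not pair the samples: deviations of same-numbered libraries correlated at -0.02, 0.00 and -0.04.

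Members at least 2-fold higher numbered 2 without a filter (22.7% of all genes) and 0 with mouse 4002 alone (11.8%). With a mouse or WT library left out they numbered 0 to 2, beside 13.3% to 15.6% of all genes. At an unadjusted p under 0.05 with a mouse or WT library left out, members higher numbered 1 to 5 and members lower 1 to 2. Beside these, 6.12% (without mouse 4007) to 15.0% (without mouse 4001) of all genes were higher. Lower were 4.29% (without mouse 4007) to 13.4% (without mouse 4001). Members lower at that p numbered 2 with edgeR (9.73% of all genes) and 4 with the mouse as a random block (10.8%). Members with every LBR-null library higher numbered 10 to 17 with a mouse or WT library left out, beside 27.9% to 35.7% of all genes. The 17 without mouse 4001 were 43.6% of the members, beside 35.7% of all genes. With mouse 4002 alone, 20 members were higher, beside 46.4% of all genes, and 14 were lower, beside 44.3%. With a mouse or WT library left out, other heterochromatin genes at that p numbered 2 to 18 higher, beside 6.12% to 15.0% of all genes. Those lower numbered 2 to 8, beside 4.29% to 13.4%, or 2 with equal totals (7.32% of all genes). The proliferation marker median was -1.95 with a pseudocount of 5. Scaling moved the median of all genes by no more than 0.02 from 0. Members of few reads, such as Suv39h2 and Hmga2, are limited by depth.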
